A study of Mus musculus with 9 samples.

Results

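The RGS genes described here encode regulators of G-protein signalling measured in the media, the smooth muscle layer, of the mouse femoral artery. The 9 members, Rgs1, Rgs2, Rgs3, Rgs4, Rgs5, Rgs10, Rgs16, Rgs18 and Rgs19, were taken by gene name from 3 deposited tables, and all 9 were present in each table, among 16750 genes present in at least 2 tables. RNA was sequenced from 9 libraries of C57BL/6 mice in 3 groups of 3. The inhibitor-treated group was wire-injured and received VS-4718, an inhibitor of focal adhesion kinase (FAK), by oral gavage at 50 mg/kg, 2 doses per day for 2 weeks, and was collected at day 14. The injured group was wire-injured and collected at day 14 without the inhibitor. The sham group had a sham operation, and its sample titles give no day. Citrate buffer served as the vehicle; the labels do not say which of the other groups received it, nor how many animals stand behind a library. The p-values therefore measure only the spread between these libraries, which may be technical. Outer fat and adventitia had been removed, and lysis reagent was run through the lumen to clear endothelial and immune cells, so the samples are bulk media in which fewer cells of a type and less RNA per cell cannot be told apart.

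RGS proteins bind the active, GTP-bound alpha subunits of heterotrimeric G proteins and speed the hydrolysis of GTP, which shortens the signal of G protein-coupled receptors. In arterial smooth muscle they limit the contractile signalling of receptors for angiotensin, endothelin and catecholamines, and in leukocytes and platelets they limit signalling of chemokine and agonist receptors. Rgs1, Rgs2, Rgs3, Rgs4, Rgs5, Rgs16 and Rgs18 belong to the R4 subfamily, most of them small proteins with little beyond the RGS domain. Rgs10 belongs to the R12 subfamily and Rgs19, first known as GAIP, to the RZ subfamily. Rgs4 and Rgs5 are known from smooth muscle and pericytes, Rgs1 from lymphocytes, and Rgs18 from platelets and their precursors.

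Rgs4 and Rgs5 are neighbours on chromosome 1 and moved together with the inhibitor, while Rgs16, on the same chromosome, moved the other way. The 250 bases before the annotated start of each are therefore shown, from RefSeq on GRCm38.p6, where 7 of the 9 members had a promoter sequence. The Rgs4 stretch lies at chr1:169747643-169747892 on the minus strand, the Rgs5 stretch at chr1:169655251-169655500 on the plus strand, and the Rgs16 stretch at chr1:153740103-153740352 on the plus strand. Each is written 5′ to 3′ along its gene, with capitals for matches to 3 motifs searched on both strands. These were the TATA pattern TATAAA, the E-box pattern CANNTG and the CArG box, bound by serum response factor.
Rgs4: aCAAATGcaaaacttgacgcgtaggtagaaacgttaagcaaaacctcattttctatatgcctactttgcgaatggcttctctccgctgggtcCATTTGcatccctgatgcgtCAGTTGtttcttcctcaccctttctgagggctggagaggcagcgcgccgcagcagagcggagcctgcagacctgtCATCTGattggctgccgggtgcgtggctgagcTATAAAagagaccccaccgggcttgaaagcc
Rgs5: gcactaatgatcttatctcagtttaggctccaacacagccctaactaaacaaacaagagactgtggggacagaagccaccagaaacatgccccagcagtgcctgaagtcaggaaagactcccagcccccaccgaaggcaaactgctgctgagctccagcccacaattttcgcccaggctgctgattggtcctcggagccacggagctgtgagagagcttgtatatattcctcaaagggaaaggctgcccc
Rgs16: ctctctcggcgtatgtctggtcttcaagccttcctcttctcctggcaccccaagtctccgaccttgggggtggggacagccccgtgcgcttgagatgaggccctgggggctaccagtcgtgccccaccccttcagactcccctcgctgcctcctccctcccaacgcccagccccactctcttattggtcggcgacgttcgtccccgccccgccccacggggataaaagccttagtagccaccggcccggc
Rgs4 held 4 CANNTG matches and 1 TATAAA match, which lies 26 to 31 bases before the start, while the Rgs5 and Rgs16 stretches held none of the 3 motifs. Over 32851 promoter stretches of the same length, 66.2% held CANNTG, 12.4% held TATAAA and 1.47% held a CArG box. A match is a description of the letters only, and the windows of Rgs1 and Rgs18 are not shown.

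Between 14676891 and 21248740 reads per library were recovered from the deposited values. The levels below are rescaled read counts, meaning reads divided by 1 factor per library set over all 9 libraries. The summed level of 10 contractile smooth muscle markers was 605602 to 615552 in inhibitor-treated, 155952 to 182644 in injured and 514593 to 688628 in sham libraries, so the labelled tissue was present in every library. Some libraries stood apart. Skeletal muscle markers summed to 596142 in injured replicate 2, while injured replicates 1 and 3 had 68697 and 35840, and to 33873 in sham replicate 3, against 5808 and 8516. Hepatocyte markers summed to 31868 in inhibitor-treated replicate 3, against 1831 and 3045. Erythroid markers summed to 38262 to 89341 in the inhibitor-treated group, 85 to 197 in the injured group and 188 to 368 in the sham group. Each count of called members below is also given without sham replicate 3, injured replicate 2 and inhibitor-treated replicate 3.

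Injured arteries were compared with sham arteries to find what differs 14 days after wire injury. Rgs16, Rgs18, Rgs10 and Rgs19 rose and Rgs4 fell, while Rgs1, Rgs2, Rgs3 and Rgs5 did not pass the test. That is 5 of 9 members at an adjusted p under 0.05 (limma, Benjamini-Hochberg over all genes tested), against 37.3% of 16278 genes. The injured and sham ranges of 5 members did not overlap, against 51.3% of genes. Differences here and below are log2 fold changes with their SE unless a level is named. The median log2 fold change was 0.34 over the members and -0.003 over all genes. Without the 3 libraries that stand apart 5 members were called, 4 higher and 1 lower, against 4128 of 16121 genes in that setting.

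Setting inhibitor-treated beside injured arteries asks what differs with FAK inhibition after injury. Rgs18, Rgs4 and Rgs5 rose and Rgs16 and Rgs19 fell, while Rgs1, Rgs2, Rgs3 and Rgs10 did not pass. That is 5 of 9 members, against 36.1% of 16901 genes, and the ranges of 5 members did not overlap, against 51.6%, with a median of -0.25 over the members and 0.006 over all genes. Without the libraries that stand apart, where fewer genes were called in all, 5 members were called, 3 higher and 2 lower. Inhibitor-treated and sham arteries were compared for what differed from uninjured tissue. These groups differ in both injury and the inhibitor, and no sham group received the inhibitor, so the 2 cannot be told apart. Rgs18 and Rgs10 rose, and the 7 other members did not pass. That is 2 of 9 members, against 6.08% of 16166 genes, and none was lower, against 0.934% of genes (edgeR and DESeq2 also called 0 lower, and 1 member, Rgs3, was lower at an unadjusted p under 0.05 with limma). The ranges of 6 members did not overlap, against 27.9%, with a median of 0.32 over the members and -0.007 over all genes. Without the libraries that stand apart 3 members were called, all higher, the added one being Rgs5. Shares of all genes in that setting are not given for these 2 comparisons, so no excess is read from either count. The comparisons share libraries with each other, so their values are given side by side and not as support for one another.

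**Figure D1:**
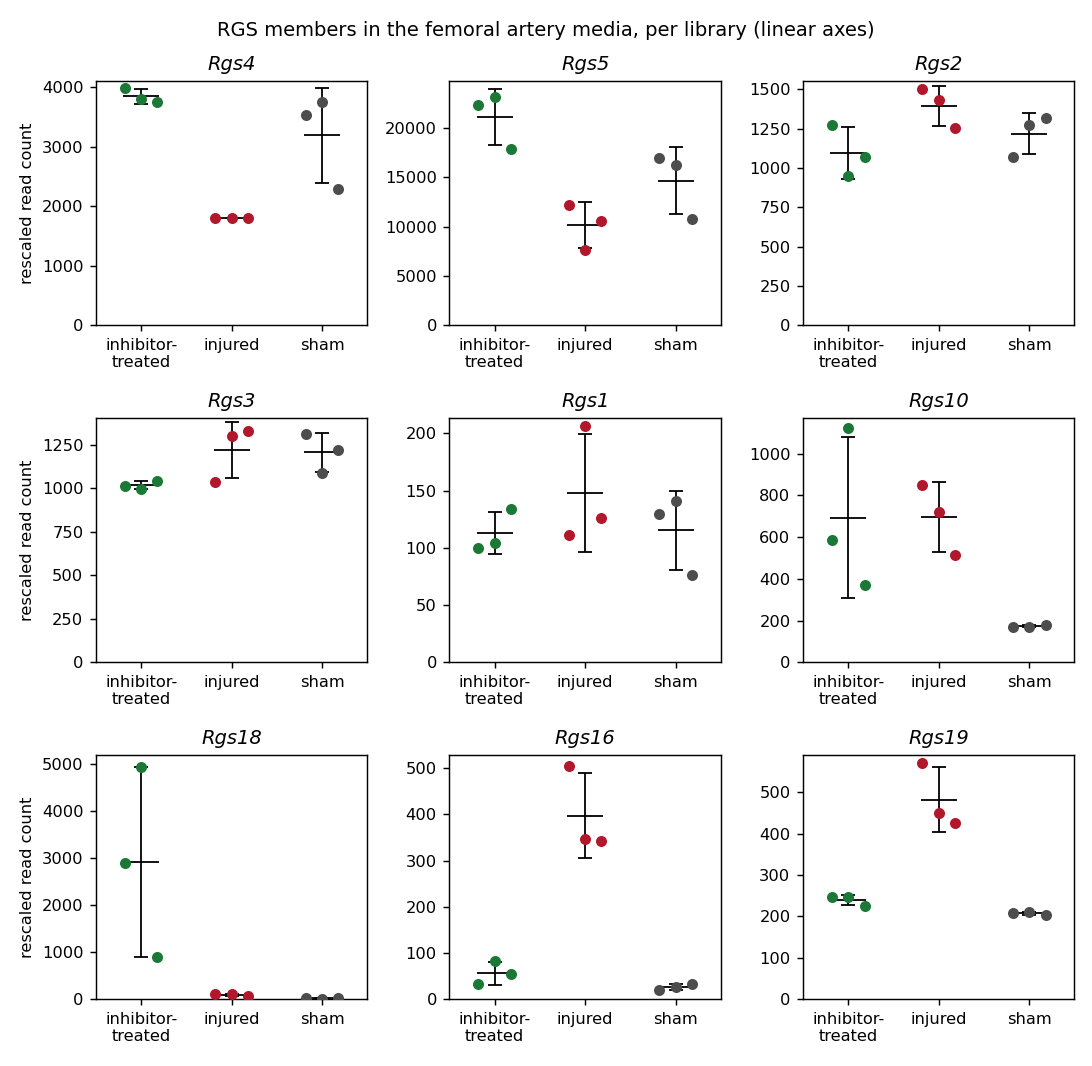
Rescaled read counts (linear axes from 0) of the 9 RGS members in each library, with points for the 3 libraries of the inhibitor-treated, injured and sham groups, a horizontal line at the mean and bars for the SD. The injured libraries lie below both other groups for Rgs4 and above both for Rgs16 and Rgs19, and the inhibitor-treated libraries reach 902 to 4932 for Rgs18.

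Levels of different members were compared per kb of protein-coding exon (GENCODE M21, GRCm38). In inhibitor-treated arteries the mean level per kb was 4639 ± 625 for Rgs5, 1433 ± 992 for Rgs18, 1309 ± 44.1 for Rgs4, 608 ± 339 for Rgs10 and 337 ± 50.7 for Rgs2 (SD, n = 3). In injured arteries it was 2224 ± 512 for Rgs5, 615 ± 0.70 for Rgs4, 609 ± 147 for Rgs10 and 429 ± 39.0 for Rgs2. In sham arteries it was 3222 ± 747 for Rgs5, 1085 ± 270 for Rgs4, 374 ± 40.8 for Rgs2, 154 ± 14.2 for Rgs3 and 151 ± 3.74 for Rgs10. Rgs5 led the members per kb in each of the 3 groups. In sham arteries Rgs18 at 9.68 ± 3.82 and Rgs16 at 11.2 ± 2.71 were the lowest per kb and did not differ beyond their spread. Rgs18 did not differ from Rgs4 beyond its spread in inhibitor-treated arteries. Rgs4 and Rgs10 in injured arteries, and Rgs3 and Rgs10 in sham arteries, did not differ beyond their spread either.

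Rgs4 limits signalling through Gi and Gq and is a gene of contractile smooth muscle in arteries (ENSMUSG00000038530, GRCm38 chromosome 1, 169741477 to 169747642). It had 3998, 3803 and 3752 rescaled counts in inhibitor-treated arteries, 1809, 1806 and 1811 in injured arteries, and 3533, 3758 and 2285 in sham arteries. The 3 injured libraries were nearly equal and lay below every other library, while sham replicate 3 lay between them and the rest. Against sham, Rgs4 fell by 0.79 ± 0.18 on the log2 scale in injured arteries (SE, limma adjusted p = 0.00956). Against injured arteries it rose in inhibitor-treated arteries by 1.09 ± 0.08 (adjusted p = 0.000117). Its log2 difference between inhibitor-treated and sham arteries was 0.32 ± 0.17, with a 95% interval of -0.07 to 0.70 (adjusted p = 0.329).

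Rgs5, a marker of pericytes and of arterial smooth muscle that limits Gi and Gq signalling, lies 45.7 kb from Rgs4 on the opposite strand (ENSMUSG00000026678, chromosome 1, 169655501 to 169695813). It had 22348, 23084 and 17837 rescaled counts in inhibitor-treated arteries, 12157, 7576 and 10601 in injured arteries, and 16926, 16273 and 10744 in sham arteries. Inhibitor-treated libraries were above all others, and the injured and sham ranges overlapped through sham replicate 3. Rgs5 rose in inhibitor-treated against injured arteries by 1.08 ± 0.20 (adjusted p = 0.00502).

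The calls of Rgs5 in the other comparisons changed with the test. Injured minus sham was -0.54 ± 0.23, which did not pass with limma (adjusted p = 0.105) and passed with DESeq2 (adjusted p = 0.0476), in the authors' deposited table (0.0473) and with limma without sham replicate 3 (0.0375). Inhibitor-treated minus sham was 0.56 ± 0.18 and did not pass with limma (adjusted p = 0.121). It passed with DESeq2 (0.0171), in the authors' deposited table (0.0170), with ribosomal protein scaling (0.0332) and without the libraries that stand apart (0.0192). In sham replicate 3, the smooth muscle genes Acta2 and Myh11 stood at 206510 and 176537, against 272214 and 191240 in sham replicate 1 and 287811 and 226776 in sham replicate 2. Their part in the lower Rgs4 and Rgs5 of that library was not tested.

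Rgs4 and Rgs5 had the smallest distance of the 36 pairs of members, a root mean square difference of 0.22 between their centred log2 levels over 9 libraries. Rgs2 and Rgs3, on different chromosomes, were almost as close, at 0.23. The contractile smooth muscle list moved beside Rgs4 and Rgs5: 9 of 10 genes fell in injured against sham arteries (median -1.90), 9 of 10 rose in inhibitor-treated against injured arteries (median 1.88). Between inhibitor-treated and sham arteries 0 of the 10 were called by limma, edgeR or DESeq2, and 1 was higher at an unadjusted p under 0.05. Limma called 6.08% of all genes in that comparison, so 0 of 10 is close to that share. Of 12 pericyte markers, 4 rose and 4 fell with injury (median 0.23), and 4 rose and 3 fell with the inhibitor (median -0.05). Their summed level, in which abundant genes weigh most, was 52756 to 54445 in inhibitor-treated, 28409 to 34659 in injured and 41933 to 52918 in sham libraries. Abcc9, a potassium channel subunit of pericytes and smooth muscle, was lowest in the injured libraries, a pattern that the pericyte list as a whole did not share. It had 5854, 5544 and 6066 counts in inhibitor-treated, 2297, 2591 and 3794 in injured, and 6308, 6016 and 6571 in sham arteries. The part of cell composition in the Rgs4 and Rgs5 differences was not tested.

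Rgs2, which is selective for Gq and lowers vasoconstrictor signalling (ENSMUSG00000026360, chromosome 1, 143999338 to 144004161), was not called in any comparison. It had 1275, 948 and 1068 rescaled counts in inhibitor-treated, 1500, 1433 and 1254 in injured, and 1067, 1270 and 1318 in sham arteries. The ranges overlapped in each of the 3 comparisons. Its log2 difference was 0.19 ± 0.13 for injured minus sham (adjusted p = 0.267), -0.35 ± 0.13 for inhibitor-treated minus injured (0.0768) and -0.14 ± 0.12 for inhibitor-treated minus sham (0.558). With ribosomal protein scaling the sign of the log2 difference between inhibitor-treated and sham arteries turned, to a log2 value of 0.0095. The 95% interval of the difference between inhibitor-treated and injured arteries was -0.66 to -0.04, and it passed with quantile normalisation (adjusted p = 0.0413), without inhibitor-treated replicate 1 (0.0482) and without injured replicate 3 (0.0418).

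Rgs3, an R4 member that also has longer isoforms and limits Gi and Gq signalling (ENSMUSG00000059810, chromosome 4, 62559847 to 62704001), was not called either. It had 1015, 996 and 1041 counts in inhibitor-treated, 1036, 1298 and 1330 in injured, and 1310, 1089 and 1222 in sham arteries. The inhibitor-treated libraries lay below every sham library, with a difference of -0.23 ± 0.08 (adjusted p = 0.167, 95% interval -0.42 to -0.04). The injured minus sham difference was 0.0056 ± 0.13, with an interval of -0.30 to 0.31, and was -0.17 with ribosomal protein scaling. The inhibitor-treated minus injured difference was -0.25 ± 0.12 (adjusted p = 0.132), and was 0.09 with that scaling. Without injured replicate 1 it was -0.37 and passed (adjusted p = 0.0197).

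Rgs1, which limits chemokine receptor signalling in lymphocytes (ENSMUSG00000026358, chromosome 1, 144242296 to 144249242), had 99.7, 105 and 134 counts in inhibitor-treated, 111, 207 and 126 in injured, and 129, 141 and 76.2 in sham arteries. Injured replicate 2 was the highest library, and the 3 groups overlapped. Injured minus sham was 0.34 ± 0.31 (adjusted p = 0.417), with a 95% interval of -0.37 to 1.06. The sign of this difference turned to -0.19 without the libraries that stand apart. Of 12 T and B cell markers tested, 11 rose with injury. Of 14 tested with the inhibitor, 2 rose and 2 fell against injured arteries and 10 rose against sham, a comparison in which Rgs1 differed by 0.01 ± 0.24 (adjusted p = 0.983). Cd3e, a chain of the T cell receptor complex, had 37.0, 33.9 and 46.3 counts in inhibitor-treated, 35.8, 92.0 and 21.5 in injured, and 1.00, 4.69 and 4.36 in sham arteries.

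**Figure D2:**
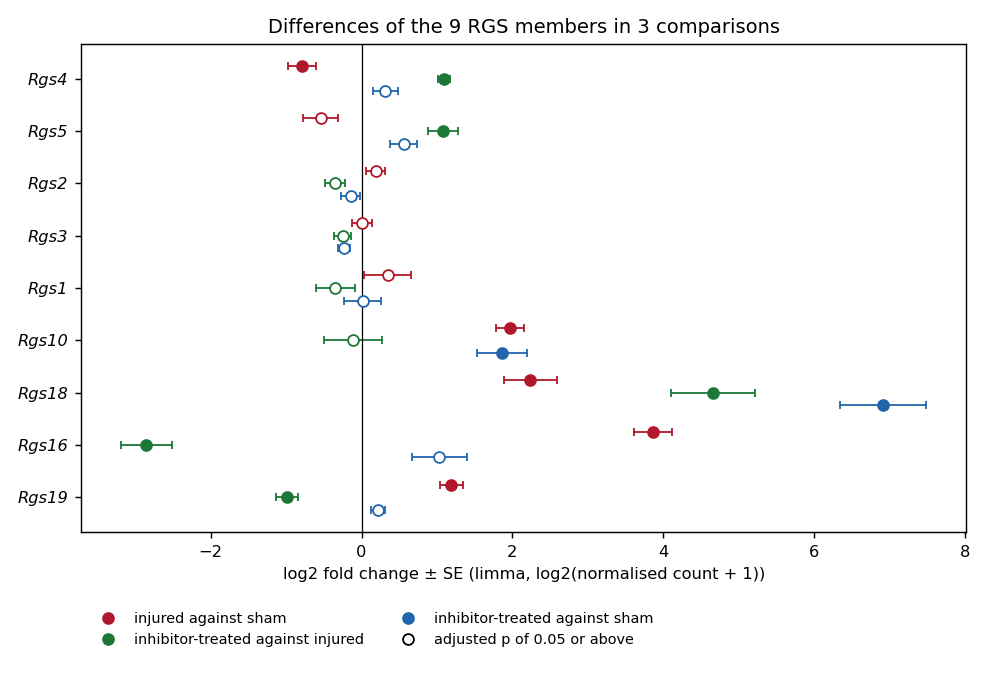
Log2 fold changes of the 9 RGS members (x axis, with bars for the SE) in injured against sham, inhibitor-treated against injured and inhibitor-treated against sham arteries, with filled points for an adjusted p under 0.05 and open points otherwise. Rgs16 and Rgs19 lie right of 0 for injury and left of 0 for the inhibitor, Rgs4 and Rgs5 lie the other way, and Rgs18 lies right of 0 in all 3 comparisons.

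Rgs16, an R4 member that limits Gi and Gq signalling and is induced by inflammatory stimuli in lymphocytes (ENSMUSG00000026475, chromosome 1, 153740349 to 153745468), had the largest fold rise of the 9 members with injury. It had 33.2, 82.6 and 54.5 rescaled counts in inhibitor-treated arteries, 503, 346 and 342 in injured arteries, and 20.03, 25.8 and 32.7 in sham arteries. Every injured library was above every other library, and the lowest inhibitor-treated library was close to the highest sham library. Rgs16 rose with injury by 3.87 ± 0.25, a 14.6-fold change (adjusted p = 2.35e-05), on 20 to 30 reads per sham library. In inhibitor-treated against injured arteries it fell by 2.85 ± 0.33 (adjusted p = 0.000767). The difference between inhibitor-treated and sham arteries was 1.03 ± 0.36, with an interval of 0.21 to 1.86 (adjusted p = 0.150).

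Rgs19, a regulator of Gi proteins that sits on intracellular vesicles (ENSMUSG00000002458, chromosome 2, 181688419 to 181693977), followed the same directions with smaller changes. It had 247, 247 and 226 counts in inhibitor-treated, 570, 449 and 425 in injured, and 209, 210 and 204 in sham arteries. The 3 groups did not overlap. Rgs19 rose with injury by 1.19 ± 0.15 (adjusted p = 0.000458) and fell by 0.99 ± 0.14 in inhibitor-treated against injured arteries (adjusted p = 0.00178). Against sham, the inhibitor-treated difference was 0.22 ± 0.10 (adjusted p = 0.241), and with ribosomal protein scaling it was 0.37 with an adjusted p of 0.0498.

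Markers of some other cells moved in the same direction as Rgs16 and Rgs19 in both comparisons, and others did so only with injury. T and B cell and neutrophil markers mostly rose with injury. With the inhibitor, 2 of 14 T and B cell markers fell and 2 rose, and 0 of 9 neutrophil markers fell and 2 rose. Of 14 macrophage and monocyte markers, 14 rose with injury and 13 fell with the inhibitor, and their summed level was 5926 to 10497 in inhibitor-treated, 37582 to 57604 in injured and 4406 to 5973 in sham libraries. Of 12 fibroblast markers, 8 rose and 1 fell with injury, and 1 rose and 10 fell with the inhibitor. Their summed level was 118570 to 134070 in inhibitor-treated, 328443 to 466601 in injured and 131748 to 152573 in sham libraries. Of 12 endothelial markers, 9 rose with injury and 9 fell with the inhibitor, and their summed level was 33882 to 34827 in inhibitor-treated, 41287 to 54258 in injured and 27163 to 40766 in sham libraries. The part of these cells in the Rgs16 and Rgs19 differences was not tested.

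Rgs18, an R4 member of platelets, megakaryocytes and other blood cells that limits platelet activation (ENSMUSG00000026357, chromosome 1, 144752683 to 144775435), rose in each comparison. It had 2898, 4932 and 902 rescaled counts in inhibitor-treated arteries, 105, 104 and 71.3 in injured arteries, and 20.03, 11.7 and 27.2 in sham arteries. The 3 groups did not overlap, and the inhibitor-treated libraries spread widely, with an SD of 2015 around a mean of 2911. Injured against sham arteries differed by 2.24 ± 0.35 (adjusted p = 0.00149), on 10 to 25 reads per sham library. Inhibitor-treated against injured arteries differed by 4.66 ± 0.56 (adjusted p = 0.000837) and against sham by 6.91 ± 0.57 (adjusted p = 0.000407).

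Rgs10, a small R12 member of platelets, macrophages and lymphocytes that limits Gi signalling (ENSMUSG00000030844, chromosome 7, 128373621 to 128418758), rose in injured and in inhibitor-treated arteries against sham. It had 586, 1123 and 372 counts in inhibitor-treated, 848, 720 and 515 in injured, and 170, 170 and 177 in sham arteries. The inhibitor-treated and injured libraries all lay above every sham library and overlapped each other. Rgs10 rose by 1.97 ± 0.19 in injured against sham arteries (adjusted p = 0.000118). In inhibitor-treated against sham arteries it rose by 1.86 ± 0.33 (adjusted p = 0.0159), and this call was lost without inhibitor-treated replicate 1 (0.0503), sham replicate 1 (0.0758) or sham replicate 2 (0.0690). Between inhibitor-treated and injured arteries the difference was -0.12 ± 0.39, with an interval of -1.02 to 0.79 (adjusted p = 0.830), and its sign turned with ribosomal protein scaling (0.23) and without the libraries that stand apart (0.29).

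The inhibitor-treated libraries, where Rgs18 was highest, were also the highest for platelet and erythroid markers, whereas Rgs10 was about as high in injured libraries, where the erythroid sum was 85 to 197. All 12 platelet and megakaryocyte markers tested rose in inhibitor-treated arteries, against injured arteries (median 4.35) and against sham (median 6.21), and 4 of the 7 tested rose with injury. Gp6 was at 0 in injured replicate 3 and sham replicate 1, and Treml1 in sham replicate 2. The summed level of the 12 was 18359, 34320 and 14008 in inhibitor-treated, 1877, 1275 and 1096 in injured, and 655, 597 and 722 in sham libraries. Ppbp, a chemokine stored in platelet granules, had 11768, 18621 and 6353 counts in inhibitor-treated, 112, 59.7 and 58.4 in injured, and 16.0, 25.8 and 46.8 in sham arteries. Gp9, a subunit of the platelet receptor for von Willebrand factor, had 759, 2135 and 539 counts in inhibitor-treated, 16.7, 11.4 and 5.15 in injured, and 3.00, 4.69 and 8.71 in sham arteries. Pf4, a further platelet marker, had 1524, 3352 and 973 counts in inhibitor-treated arteries. It had 878, 620 and 502 in injured and 209, 156 and 205 in sham arteries. The platelet sum is not separate from the genes in it. Within the inhibitor-treated group Rgs18, Rgs10, Pf4, Ppbp, Gp9 and the platelet sum were highest in replicate 2 and lowest in replicate 3. Itga2b, the platelet integrin subunit, did not follow that order, with 429, 901 and 1114 counts, and the erythroid sum was highest in replicate 2 and lowest in replicate 1. Neutrophil markers rose in 9 of 9 genes tested with injury and in 8 of 9 in inhibitor-treated against sham arteries, and 2 rose and 0 fell in inhibitor-treated against injured arteries. Their summed level was 2674 to 2986 in inhibitor-treated, 1514 to 5871 in injured and 159 to 201.3 in sham libraries. T and B cell markers rose in 11 of 12 with injury and in 10 of 14 in inhibitor-treated against sham arteries. Of 14 macrophage and monocyte markers, 14 rose with injury, 13 fell with the inhibitor and 3 were higher in inhibitor-treated than in sham arteries. Their summed level was 5926 to 10497 in inhibitor-treated, 37582 to 57604 in injured and 4406 to 5973 in sham libraries. The part of platelets, macrophages, neutrophils, lymphocytes or other blood cells in the Rgs18 and Rgs10 differences was not tested.

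**Figure D3:**
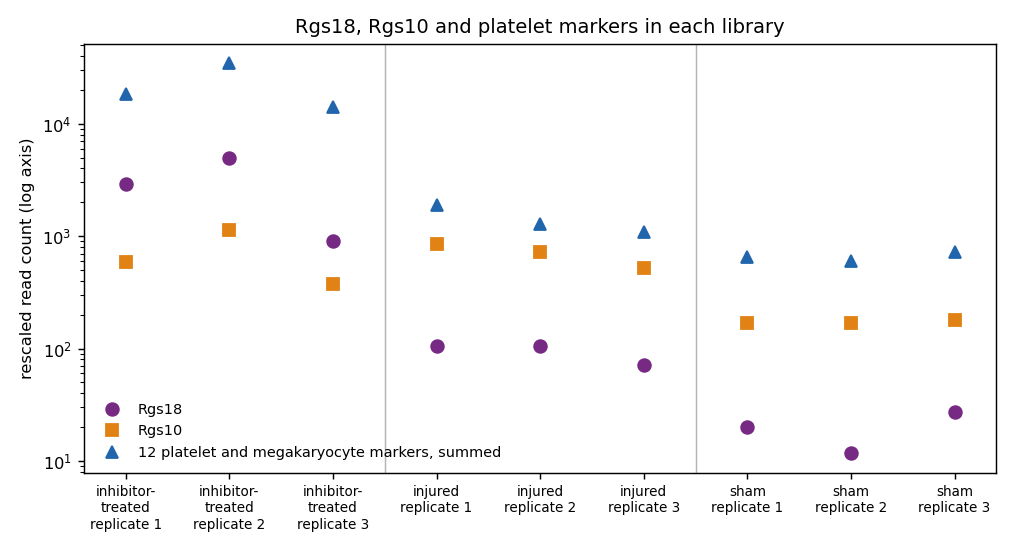
Rescaled read counts (log axis) of Rgs18 (circles), Rgs10 (squares) and the sum of 12 platelet and megakaryocyte markers (triangles) in each of the 9 libraries. Rgs18 and the marker sum are highest in the inhibitor-treated libraries, while Rgs10 lies in a similar range in the inhibitor-treated and injured libraries.

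Other genes of the RGS family were read from a fixed list of 15, of which 8 were present in at least 2 tables and 7 were not analysed here. With injury, 3 of the 7 tested fell and 2 rose, against 16.8% of genes called lower and 20.6% called higher. With the inhibitor, 4 of 8 rose and 2 fell against injured arteries, where 17.6% of genes were called higher and 18.5% lower. Between inhibitor-treated and sham arteries 0 of 8 were called by limma or edgeR and 1 by DESeq2, and 2 had an unadjusted p under 0.05 with limma, Rgs7 and Rgs14. Limma called 6.08% of all genes in that comparison, so 0 of 8 is close to that share. Rgs7, an R7 member that acts with the G beta subunit Gnb5, had 439, 383 and 402 counts in inhibitor-treated, 34.6, 20.9 and 52.4 in injured, and 657, 458 and 474 in sham arteries. It fell by 3.92 ± 0.32 with injury (adjusted p = 5.93e-05) and rose with the inhibitor by 3.56 ± 0.32 (adjusted p = 0.00025).

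Rgs11, a further R7 member, fell by 1.39 ± 0.23 with injury and rose with the inhibitor by 1.17 ± 0.19. Rgs7bp, which anchors R7 proteins to the membrane, fell by 1.22 ± 0.17 with injury and rose with the inhibitor by 1.12 ± 0.16. Rgs6, of the same subfamily, rose with the inhibitor by 0.65 ± 0.17, while its injured minus sham difference was -0.42 ± 0.19 (adjusted p = 0.111). Gnb5 itself, named after its values were seen, had 309, 311 and 304 counts in inhibitor-treated, 512, 387 and 454 in injured, and 366, 328 and 328 in sham arteries, and it fell by 0.53 ± 0.13 with the inhibitor (adjusted p = 0.0174; 0.481 with ribosomal protein scaling).

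Of the R12 members, Rgs12 rose with injury by 0.95 ± 0.16 and fell with the inhibitor by 0.95 ± 0.21. Rgs14 rose with injury by 2.65 ± 0.31 and fell with the inhibitor by 1.29 ± 0.35. With ribosomal protein scaling Rgs12 lost both calls and Rgs14 lost the second, with the signs kept. Rgs14 had 33.2, 27.5 and 63.6 counts in inhibitor-treated, 85.9, 127 and 81.6 in injured, and 11.01, 17.6 and 15.2 in sham arteries. Rgs17, an RZ member like Rgs19, was not called in any comparison, with differences of -0.43 ± 0.17 with injury and 0.47 ± 0.20 with the inhibitor. Rgsl1 stood at 6 to 18 reads per library and was not called in the 2 comparisons that tested it.

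**Figure D4:**
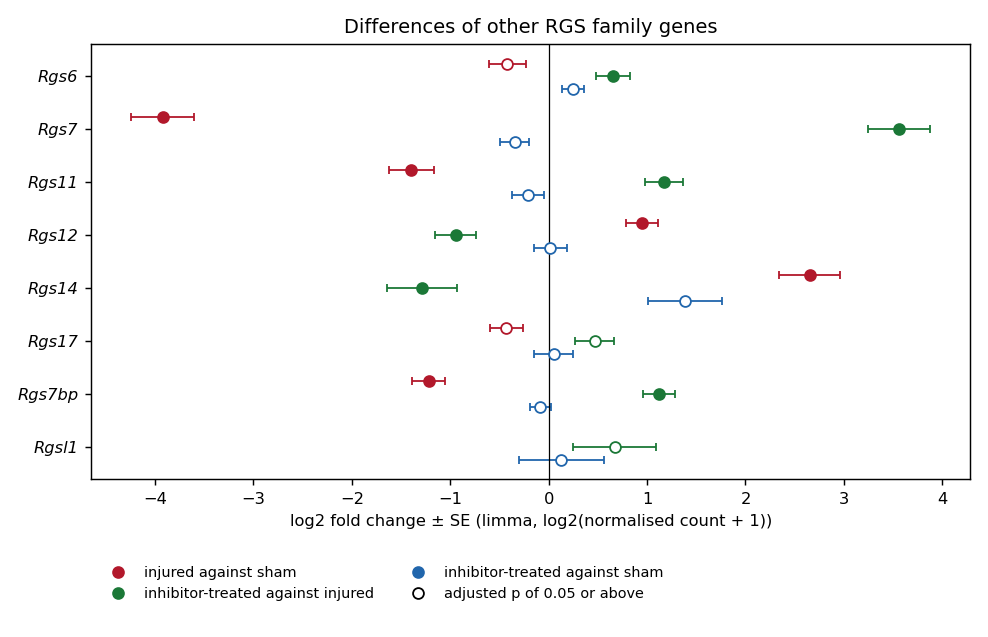
Log2 fold changes with SE (x axis) of 8 other RGS family genes in the 3 comparisons, with filled points for an adjusted p under 0.05. Rgs7, Rgs11 and Rgs7bp lie left of 0 with injury and right of 0 with the inhibitor, and Rgs12 and Rgs14 lie the other way.

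The lists of G proteins, effectors and receptors that follow are set against the shares of all genes called, 37.3% with injury, 36.1% with the inhibitor against injured arteries and 6.08% in inhibitor-treated against sham arteries. Of 13 alpha subunit genes, 2 rose and 3 fell with injury, 4 rose and 3 fell with the inhibitor, and 1 rose in inhibitor-treated against sham arteries, so 5, 7 and 1 of 13 were called, the first and last close to those shares. Gnai1, a Gi alpha subunit, fell by 1.41 ± 0.12 with injury and rose with the inhibitor by 1.16 ± 0.11, and Gnao1 fell with injury by 0.77 ± 0.14. Gna15, a Gq-type subunit of blood cells, rose with injury by 1.71 ± 0.42 (adjusted p = 0.0515 with quantile normalisation) and fell with the inhibitor by 1.57 ± 0.39. Gnaz, a Gi-type subunit of platelets and neurons that RZ proteins act on, rose with the inhibitor by 1.28 ± 0.23. It was higher in inhibitor-treated than in sham arteries by 0.79 ± 0.15 (adjusted p = 0.0201, and 0.0760 with quantile normalisation). Of the beta and gamma subunits tested, 4 of 13 rose and 2 fell with injury, 3 of 14 rose and 4 fell with the inhibitor, and 1 of 13 rose against sham, so 6 of 13, 7 of 14 and 1 of 13 were called. Gng2 rose with injury by 2.65 ± 0.18 and fell by 2.51 ± 0.17 with the inhibitor, and Gng4 rose by 1.40 ± 0.36 and fell by 2.10 ± 0.39. With quantile normalisation the rise of Gng4 was 0.82 and lost its call (adjusted p = 0.0957). Gngt2 rose with injury by 1.49 ± 0.22. Gng11, a gamma subunit that platelets also carry, had 3109, 6645 and 1837 counts in inhibitor-treated, 1489, 1335 and 1129 in injured, and 697, 679 and 725 in sham arteries.

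Among 19 tested effectors of Gq and Gi, 6 rose and 9 fell with injury, 9 rose and 6 fell with the inhibitor, and 1 rose against sham, so 15, 15 and 1 of 19 were called, the last close to its share of all genes. Adcy5, an adenylyl cyclase that Gi inhibits, had 16443, 19478 and 19321 counts in inhibitor-treated, 3632, 3217 and 3891 in injured, and 18404, 20531 and 18358 in sham arteries, a fall of 2.42 ± 0.13 with injury. Plcb2, a phospholipase of blood cells, rose with injury by 3.90 ± 0.41, fell by 1.76 ± 0.32 with the inhibitor and was higher in inhibitor-treated than in sham arteries by 2.16 ± 0.45 (adjusted p = 0.0294, and 0.0533 with quantile normalisation). Prkcb, a protein kinase C, rose with injury by 3.35 ± 0.42 and fell with the inhibitor by 1.85 ± 0.49.

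Of 30 tested receptors of smooth muscle that couple to Gq or Gi, 9 rose and 7 fell with injury, 9 rose and 11 fell with the inhibitor, and 1 rose against sham, so 16, 20 and 1 of 30 were called, the last below its share of all genes. Adra1d, an alpha-1 adrenergic receptor, had 922, 759 and 678 counts in inhibitor-treated, 72.8, 61.6 and 70.4 in injured, and 1057, 789 and 739 in sham arteries. It fell by 3.63 ± 0.18 with injury and rose with the inhibitor by 3.502 ± 0.16. Agtr1a, 1 of the angiotensin receptor genes, rose with injury by 2.01 ± 0.29 and was higher in inhibitor-treated than in sham arteries by 1.11 ± 0.26 (adjusted p = 0.0469), on low levels of 17.4 to 115. With quantile normalisation that difference was 0.72 and lost its call (adjusted p = 0.193). P2ry14, a receptor for UDP-glucose, rose with injury by 1.98 ± 0.41. Lpar1, a lysophosphatidic acid receptor, fell by 1.62 ± 0.19 with the inhibitor, and Ednrb, an endothelin receptor, fell by 1.39 ± 0.22. Of 10 RGS-domain guanine exchange factors, receptor kinases and arrestins, 2 rose and 1 fell with injury, 2 rose and 1 fell with the inhibitor, and 1 rose against sham, so 3, 3 and 1 of 10 were called, no more than the shares of all genes in the first 2 comparisons. Arhgef12, which links G12-type alpha subunits to RhoA, fell by 0.73 ± 0.15 with injury, rose with the inhibitor by 1.01 ± 0.15 and was higher in inhibitor-treated than in sham arteries by 0.30 ± 0.07 (adjusted p = 0.0390, and 0.0617 with quantile normalisation). Arrb2, a beta-arrestin, rose with injury by 1.72 ± 0.18 and fell with the inhibitor by 1.59 ± 0.19. Arrb1 rose with injury by 0.48 ± 0.14, and Arhgef1 rose with the inhibitor by 0.31 ± 0.08. Arrb1 lost its call with ribosomal protein scaling (0.30, adjusted p = 0.388), and Arhgef1 with quantile normalisation (0.14, adjusted p = 0.227).

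Genes with patterns most like those of members were found by the root mean square difference of centred log2 levels over 9 libraries, among 11678 genes with a mean of at least 100. For Rgs4 these were Bdh1, Inpp4a and Gm17501, at 0.088, 0.10 and 0.12, where Rgs4 itself varied by 0.50 around its mean. For Rgs5 they were Wdfy1, Hbegf and Arid5a, at 0.17, 0.18 and 0.20, with 0.51 for Rgs5. For Rgs16 they were Aplnr, Lst1 and Wfdc17, at 0.26, 0.29 and 0.34, with 1.68 for Rgs16. For Rgs19 they were Bin3, Efna1 and Lasp1, at 0.098, 0.10 and 0.10, with 0.53 for Rgs19. Rgs10 was nearest to Litaf, Arhgap18 and Alox5ap (0.28, 0.31 and 0.41, with 0.99 for Rgs10), and Rgs18 to Knl1, Ube2l6 and Isg20 (0.55, 0.60 and 0.62, with 2.95 for Rgs18). The nearest genes to Rgs1, Rgs2 and Rgs3 were Ppm1j, Sars2 and Cbr1, at 0.19, 0.075 and 0.063.

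Several members lie near each other or near other RGS genes. Rgs2, Rgs1 and Rgs18 lie on the minus strand of chromosome 1, with 238 kb between Rgs2 and Rgs1 and 503 kb between Rgs1 and Rgs18, and only Rgs18 of the 3 was called in any comparison. Rgs16 lies 33.9 kb from Rgsl1 and 40.0 kb from Rgs8, which was not analysed here. Annotated antisense genes overlap Rgs3 and Rgs16, and a noncoding transcript overlaps Rgs10. The use of strand in counting is not given in the sources used here, so reads from these overlaps cannot be told apart from those of the members.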

How the data were processed

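The deposited tables hold, per the file headers, a normalised signal for each gene and library and the authors' own log2 fold changes and adjusted p-values, 1 table for each of 3 comparisons. Per the submitters' processing notes the builds were mm10 and GRCm38; the sources used here give no aligner, counter or strand setting. The values of each deposited table were whole reads divided by 1 factor per library, and 100% came out whole within 0.01 read. The tables were normalised separately, so tests stayed within a table, and levels across groups were rescaled with 1 median-of-ratios factor per library over all 9.

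Log2 values of the deposited signal with a pseudocount of 1 were tested with limma 3.58.1 in R 4.3.3, on genes with a mean of at least 10, with Benjamini-Hochberg adjustment over all genes tested and a threshold of 0.05. Intervals are 95%. On recovered counts, made from the deposited values, edgeR 4.0.16 and DESeq2 1.42.0 were run as alternatives. Other alternatives were pseudocounts, filters, quantile and ribosomal protein scaling, 1 fit of all 9 libraries, a replicate block and leaving out each library. An exact permutation test of 3 against 3 cannot go below p = 0.1. Only the limma step was tested on simulated data. These had the same dispersion for every gene, far fewer changed genes than were called here and no library that stood apart. The simulation therefore does not show how the test behaves on the present libraries.

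The members and lists were chosen with earlier results of these data known. Named genes were all members, the other RGS genes, the 3 largest called changes per comparison in the pathway lists, and the 3 genes nearest to each member.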

Additional observations from a re-analysis of the deposited data

How the results depend on the processing

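The members called remained 5 in injured against sham arteries and 5 or 6 in inhibitor-treated against injured arteries under other scalings, the all-library fit and the replicate block. In inhibitor-treated against sham arteries they were 4 with ribosomal protein scaling and 1 to 2 with a library left out. Genes called there were 1695 with that scaling and 518 to 854 with a library left out, against 983, and in inhibitor-treated against injured arteries 3295 without the libraries that stand apart, a setting chosen after seeing the data. Ribosomal protein scaling moved the median log2 difference of all genes to -0.18, 0.35 and 0.15 in injured against sham, inhibitor-treated against injured and inhibitor-treated against sham arteries. The share of called genes that were higher was 70.2% with it, against 48.8% without, in inhibitor-treated against injured arteries; against sham it was 97.9%, and 73.7% with quantile normalisation and 95% in the all-library fit, against 84.6%. DESeq2 called 1434 genes there.

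Signs turned only for differences that were not called. Injured minus sham turned for Rgs1 with quantile normalisation (-1.56e-05) and without the libraries that stand apart (-0.19), and for Rgs3 with ribosomal protein scaling (-0.17), without the libraries that stand apart (-0.033) and with a library left out, where values ran from -0.066 to 0.12 (-0.043 without injured replicate 2 and -0.059 without injured replicate 3). Inhibitor-treated minus injured turned for Rgs3 with ribosomal protein scaling (0.095) and for Rgs10 with that scaling (0.23), edgeR (0.0063), DESeq2 (0.0031), the authors' deposited table (0.0025), without injured replicate 1 (0.042) and without the libraries that stand apart (0.29), with values of -0.54 to 0.26 over libraries left out. Inhibitor-treated minus sham turned for Rgs1 with quantile normalisation (-0.17), edgeR (-0.018), DESeq2 (-0.020), the authors' deposited table (-0.020), without inhibitor-treated replicate 3 (-0.12), with values of -0.25 to 0.17 over libraries left out, and without the libraries that stand apart (-0.38), and for Rgs2 with ribosomal protein scaling (0.0095). The cause was not tested. Of 323 member values under the other alternatives 298 kept their direction and side of the threshold, as did 148 of 162 with a library left out.

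The labels state no pairing of samples. Same-numbered libraries of different groups deviated with correlations of -0.074 to 0.21, and other-numbered ones with -0.23 to 0.19. With 3 libraries per group these ranges cannot settle whether samples were paired. With the replicate block 5762, 5747 and 877 genes were called in injured against sham, inhibitor-treated against injured and inhibitor-treated against sham arteries, with 5, 5 and 3 members; the added call was Rgs5 against sham (limma adjusted p = 0.0242). Low read numbers limit Rgs16 and Rgs18 in sham libraries.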
